A study of Homo sapiens with 6 samples.

Results

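The thrombospondins and other matricellular proteins were examined as 10 genes, THBS1, THBS2, THBS3, CTGF, CYR61, SPARC, SPOCK1, TNC, SPP1 and ANKRD1, of 27216 rows in the expression table. They were taken by symbol, and the set was put together because THBS1 and CTGF were much higher after Osi treatment, so all differences between the groups are given for the members as descriptions without a test. CTGF and CYR61 are the older names of CCN2 and CCN1. ANKRD1 is not a secreted protein but an ankyrin repeat protein of the nucleus and the sarcomere, and stands in the set as a well-known transcriptional target of the same factors that drive CTGF and CYR61.

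The cells were H1975, a line from a human lung adenocarcinoma with mutant EGFR, labelled with the genotype WT, and each group held 3 samples. Parental cells were labelled as Osi at 1000 nM for 0 h, with columns named for DMSO, and adapted cells as Osi at 1000 nM for 72 h. Osi (osimertinib) is a tyrosine kinase inhibitor of mutant EGFR. Dead cells were rinsed off before extraction, so the adapted samples hold the cells that stayed on the dish, and a lower RNA level per cell cannot be told apart from fewer cells of a type. The labels also describe a digestion of linear RNA with RNase R, which the methods of the study do not mention. The study describes its data in general as coming from independent experiments with technical replicates, but which of these the 3 samples of a group are is not stated, and the spread between them may be technical.

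Matricellular proteins are secreted into the extracellular matrix without being part of its scaffold. They bind integrins, proteoglycans, growth factors and proteases, and in tumors they are known for changing adhesion, migration and the release of latent TGF-beta. CTGF, CYR61 and ANKRD1 are classical targets of YAP and TAZ, the transcriptional co-activators held back by the Hippo kinases, which bind DNA through the TEAD factors, and THBS1 responds to both YAP and TGF-beta signaling.

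Levels are given as deposited, on a scale taken from the values as log2(FPKM + 1), or as FPKM. FPKM is a fragment density scaled for transcript length and for library size. Orders, ranks and shares of genes rest on this reading of the unit, which the authors do not name. Whether the RNase R digestion in the labels applied here and changed the levels of genes unequally was not tested. Each sample's FPKM added up to 375342 to 387753 over the table. The depth behind each value is unknown because counts of reads are not analysed here. Adapted replicate 1 stood apart from the other adapted samples. Over all rows it correlated with adapted replicates 2 and 3 at 0.991, while these correlated with each other at 0.996, and it lay closer to the parental samples (0.973 against 0.963 to 0.964). These correlations are across genes, which are not independent replicates. Of 12 epithelial markers of lung carcinoma, 10 reached 1 FPKM in at least one sample, and their summed level was 4452 to 4486 FPKM in parental and 4189 to 4525 FPKM in adapted cells. SFTPC and SFTPB, surfactant genes of alveolar type II cells, did not. Of 9 fibroblast markers, 2 reached 1 FPKM, with a sum of 3.04 to 3.28 FPKM in parental and 8.65 to 9.41 FPKM in adapted cells, most of it from COL1A1 (log2 level 1.99 to 2.04 against 2.97 to 3.28). The fibroblast markers THY1 and PDGFRA were at 0 or near it in all samples. The 7 leukocyte markers summed to 75.0 to 77.5 FPKM in parental and 14.9 to 29.8 FPKM in adapted cells, nearly all of it from CD68, a lysosomal protein of macrophages and other cells, which fell by 1.85 in log2 level (limma adjusted p = 3.63e-04). PTPRC and CD3E, which define leukocytes and T cells, were at or near 0. The 6 endothelial markers summed to 1.17 to 1.89 FPKM in parental and 1.53 to 3.51 FPKM in adapted cells. The part of such cells in the levels of the members was not tested.

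The DNA upstream of the members is shown because the strongest of them are known targets of TEAD factors. Promoter sequences came from RefSeq (GRCh38.p14) and were found for 8 of the 10 members, all but CYR61 and SPOCK1. The 250 bases before each start were searched on both strands for the TEAD core GGAATG, the AP-1 site TGANTCA and the CArG box of SRF, none of which overlapped another here. The stretches of CTGF, ANKRD1 and THBS1 that lie before the GENCODE v29 gene are printed from 5′ to 3′ on the strand of the gene, with motif letters in capitals.
CTGF, chr6:131951374-131951622, minus strand: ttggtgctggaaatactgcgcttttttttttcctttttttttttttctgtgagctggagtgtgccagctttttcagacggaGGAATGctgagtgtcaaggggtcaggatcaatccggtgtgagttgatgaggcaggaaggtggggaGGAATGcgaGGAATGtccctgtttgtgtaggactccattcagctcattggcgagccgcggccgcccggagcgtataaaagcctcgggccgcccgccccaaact
ANKRD1, chr10:90921277-90921337, minus strand: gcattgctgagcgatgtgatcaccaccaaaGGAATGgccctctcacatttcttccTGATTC
THBS1, chr15:39580829-39581078, plus strand: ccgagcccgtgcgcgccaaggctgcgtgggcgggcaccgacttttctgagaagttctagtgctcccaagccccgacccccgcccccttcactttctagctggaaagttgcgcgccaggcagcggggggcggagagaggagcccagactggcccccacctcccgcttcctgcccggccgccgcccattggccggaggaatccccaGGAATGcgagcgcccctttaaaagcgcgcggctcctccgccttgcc

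CTGF held 3 TEAD cores, which begin at positions -169, -104 and -95 from the start. ANKRD1 held 2, at -220 and at -128 (past the printed stretch), and 1 AP-1 site from -195 to -189, whose last base lies just past the printed stretch. THBS1 held 1, at -46. THBS2 held 2, at -103 on the other strand and at -91, and SPARC held 1 on the other strand at -17. The cores of THBS2 and SPARC and the ANKRD1 core at -128 lie within the GENCODE v29 gene. The whole window of THBS3 does so too. THBS3, TNC and SPP1 had no match in this window, and none of the 8 had a CArG box. Of 35116 promoters of the same length, 11.9% held at least 1 TEAD core and 0.94% at least 2, 6.57% held the AP-1 site and 1.16% a CArG box. The matches are a description of these letters and not of binding. Their relation to the levels was not tested, and none is read from them. THBS2, with 2 cores, stayed below 1 FPKM in every sample. Of the members with none, THBS3 was higher, TNC was lower and SPP1 overlapped between the groups.

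Of the 10 members, 7 were higher in all 3 adapted samples than in all 3 parental samples (THBS1, THBS3, CTGF, CYR61, SPARC, SPOCK1 and ANKRD1), 1 was lower (TNC), and in 2 the groups overlapped (THBS2 and SPP1). Among the 12656 rows with a mean log2 level of at least 1, 66.3% had groups that did not overlap, 35.7% higher and 30.6% lower in adapted cells. THBS2 did not reach that mean, and ANKRD1 reached it only through its adapted level. In a fit of limma to all of these rows (lmFit, and eBayes with an intensity trend, Benjamini-Hochberg adjusted p under 0.05), 56.9% were called, 30.7% higher and 26.2% lower in adapted cells. It called 7 of the 9 members tested as higher and 1 as lower, and since the members were chosen on this contrast nothing is read from that count. None of the members had values off the 6-decimal grid on which nearly all of the table lies.

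**Figure D1:**
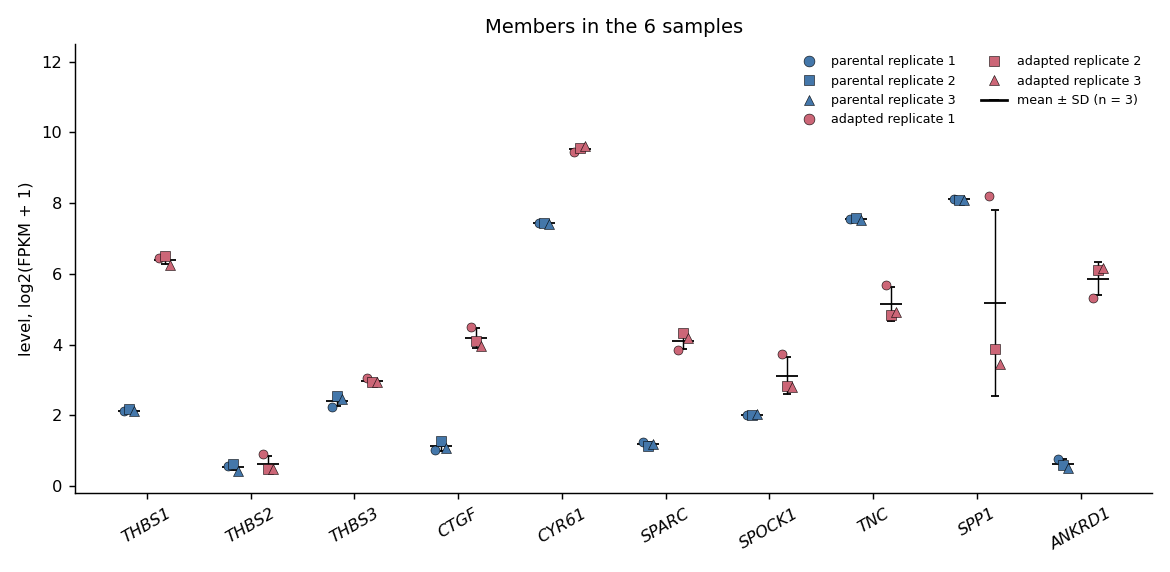
Level of each member as log2(FPKM + 1) (y axis) in the 3 parental samples (blue) and the 3 adapted samples (red), with the replicate number shown by the symbol and the mean ± SD as bars. The groups are apart in all members but THBS2 and SPP1, and adapted replicate 1 of SPP1 lies at 8.20, beside the parental samples.

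THBS1 encodes thrombospondin-1, a trimeric glycoprotein that binds CD47, CD36 and integrins and can activate latent TGF-beta. The gene spans 39581079 to 39599466 of chromosome 15, plus strand (GENCODE v29, GRCh38). Its log2 levels were 2.11, 2.18 and 2.11 in parental replicates 1 to 3 and 6.44, 6.51 and 6.25 in adapted replicates 1 to 3. All adapted samples were far above all parental ones, and the 3 adapted samples were close to one another. The mean went from 2.14 ± 0.04 to 6.40 ± 0.13 (SD, n = 3 each), a log2 difference of 4.27. On the linear scale this was 3.39 ± 0.12 against 83.8 ± 7.7 FPKM, 24.7-fold higher in adapted cells.

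THBS2, the closest relative of THBS1 and also a trimer, spans 169215780 to 169254044 of chromosome 6, minus strand. It was at log2 levels of 0.57, 0.63 and 0.44 in parental and 0.90, 0.47 and 0.48 in adapted cells. The groups overlapped, and adapted replicate 1 was the highest of the 6 samples. The log2 difference was 0.07 with all samples and -0.07 without adapted replicate 1, so no direction can be given. THBS3, a pentameric family member, spans 155195588 to 155209051 of chromosome 1, minus strand. Its log2 levels were 2.24, 2.54 and 2.47 in parental and 3.05, 2.93 and 2.94 in adapted cells. The groups did not overlap, but the step was small beside that of THBS1. The means were 2.42 ± 0.16 and 2.97 ± 0.07 (SD, n = 3 each), or 4.36 and 6.86 FPKM, 1.57-fold higher in adapted cells. In parental cells THBS3 was the most abundant thrombospondin of these 3, with THBS1 next, and in adapted cells THBS1 was.

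CTGF and CYR61 are CCN proteins, short modular ligands of integrins and heparan sulfate proteoglycans and immediate targets of YAP and TAZ. CTGF spans 131948176 to 131951373 of chromosome 6, minus strand, and its promoter with the 3 TEAD cores is printed above. It was at log2 levels of 1.03, 1.27 and 1.08 in parental and 4.50, 4.11 and 3.96 in adapted cells. Each adapted sample was well above the parental range, with replicate 1 the highest. The means were 1.13 ± 0.12 and 4.19 ± 0.28 (SD, n = 3 each), or 1.19 ± 0.19 and 17.5 ± 3.6 FPKM, 14.7-fold higher in adapted cells.

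CYR61 spans 85580761 to 85583962 of chromosome 1, plus strand. Its log2 levels were 7.44, 7.44 and 7.41 in parental and 9.44, 9.55 and 9.63 in adapted cells. It was already abundant before treatment, unlike CTGF, and the samples of each group were close together. The linear means were 171.6 ± 1.7 and 743 ± 49 FPKM (SD, n = 3 each), 4.33-fold higher in adapted cells. The smaller fold of CYR61 was the larger step in FPKM, from rank 260 to rank 53 among 19956 rows other than those named NewGene_, while CTGF went from rank 11415 to rank 3932.

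SPARC, a collagen- and calcium-binding glycoprotein, spans 151661096 to 151687165 of chromosome 5, minus strand. It was at log2 levels of 1.25, 1.14 and 1.18 in parental and 3.85, 4.33 and 4.17 in adapted cells. All adapted samples were higher, and replicate 1 was the lowest of them. The means of 1.19 ± 0.05 and 4.12 ± 0.25 (SD, n = 3 each) correspond to 1.28 and 16.5 FPKM, 12.9-fold higher in adapted cells. SPOCK1 encodes testican-1, a proteoglycan of the SPARC family, at 136975298 to 137598379 of chromosome 5, minus strand. Its log2 levels were 2.02, 2.00 and 2.04 in parental and 3.73, 2.84 and 2.81 in adapted cells. The groups did not overlap, and much of the mean difference of 1.11 came from adapted replicate 1, without which it was 0.80.

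TNC encodes tenascin-C, a hexameric glycoprotein of remodeling tissue and tumor stroma that spans 115019578 to 115118257 of chromosome 9, minus strand. It was at log2 levels of 7.56, 7.58 and 7.52 in parental and 5.70, 4.83 and 4.93 in adapted cells. Every adapted sample was lower, with replicate 1 the least so. The linear means were 186.9 ± 4.2 and 35.9 ± 13.0 FPKM (SD, n = 3 each), 5.20-fold lower in adapted cells and 6.57-fold lower without adapted replicate 1.

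SPP1 encodes osteopontin, a secreted phosphoprotein that binds integrins and CD44, at 87975650 to 87983426 of chromosome 4, plus strand. It was the most abundant member in parental cells, at log2 levels of 8.12, 8.10 and 8.10. The adapted samples were at 8.20, 3.88 and 3.46. Adapted replicate 1 was above all parental samples, whereas replicates 2 and 3 were far below them, so the 3 adapted samples did not share a direction. In FPKM, replicate 1 was at 292.9 and replicates 2 and 3 at 13.7 and 10.0, against 273.3 to 277.9 in parental cells. The mean log2 difference of -2.93 describes none of the 3 samples, and without adapted replicate 1 it was -4.44, a level 23.1-fold lower in FPKM.

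ANKRD1 spans 90912096 to 90921276 of chromosome 10, minus strand. Its log2 levels were 0.76, 0.60 and 0.50 in parental and 5.33, 6.10 and 6.17 in adapted cells. It was among the lowest members before treatment and among the highest after it, with adapted replicate 1 the lowest of its group. The log2 difference was 5.25, the largest of the 10. In FPKM it went from 0.54 ± 0.14 to 59.2 ± 17.5 (SD, n = 3 each), 109.7-fold higher, a ratio that rests on a parental level of unknown counting error.

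In parental cells the FPKM levels ran from SPP1 through TNC, CYR61, THBS3, THBS1, SPOCK1, SPARC, CTGF and ANKRD1 to THBS2. The ranges of neighbours overlapped for SPARC and CTGF and for ANKRD1 and THBS2, and were apart for the others. In adapted cells the order was CYR61, SPP1, THBS1, ANKRD1, TNC, CTGF, SPARC, SPOCK1, THBS3 and THBS2. The place of SPP1 rests on adapted replicate 1, without which its mean was 11.9 FPKM, below those of TNC (28.4 FPKM), SPARC (18.1 FPKM) and CTGF (15.5 FPKM). Here the ranges overlapped for SPP1 and THBS1, ANKRD1 and TNC, CTGF and SPARC, and SPOCK1 and THBS3. The summed level of the members was 639 to 652 FPKM in parental samples and 1217, 995 and 1020 FPKM in adapted replicates 1 to 3. On average the sum went from 647.6 to 1078 FPKM, and CYR61 alone from 171.6 to 743 FPKM. The step of CYR61 was thus larger than that of the sum, and on average the other members together did not rise in FPKM. SPP1, TNC and CYR61 made up nearly all of the parental sum, with 42.5%, 28.9% and 26.5% on average. In adapted replicates 2 and 3, CYR61 alone made up 75.1% and 77.4%, while in replicate 1 it was 56.9% and SPP1 24.1%. The share of THBS1 was 0.51% to 0.54% in parental and 7.06% to 9.07% in adapted samples.

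**Figure D2:**
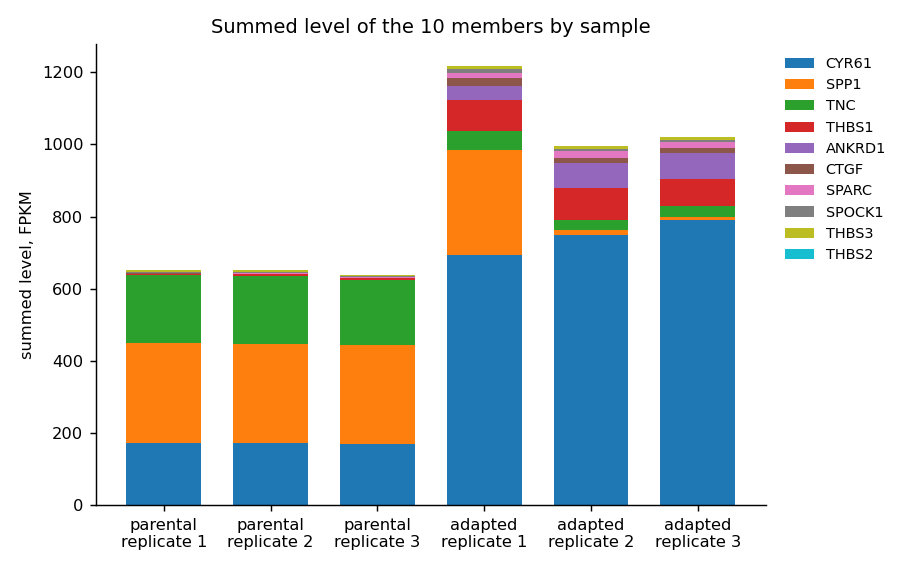
Summed FPKM of the 10 members in each sample (y axis), with one color per gene. The parental sums of 639 to 652 FPKM consist of SPP1, TNC and CYR61, the adapted sums of 995 to 1217 FPKM mostly of CYR61, and the SPP1 part is large in adapted replicate 1 only among the adapted samples.

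The members were not alike in how adapted replicate 1 compared with replicates 2 and 3. Its log2 difference from the parental mean was 101% of theirs for THBS1, 93.0% for CYR61, 86.8% for SPARC, 85.4% for ANKRD1 and 69.3% for TNC. It was larger than theirs for CTGF (116%), THBS3 (122%) and SPOCK1 (213%), and for SPP1 it was -2.06%. Among the 1519 rows in which replicates 2 and 3 averaged at least 1 from the parental mean on the log2 scale, the median of this percentage was 76.3%, and 5% of rows lay below 30.1%. SPP1 was 1 of 35 of these rows below 10%. Since the rows were picked by the size of the difference in replicates 2 and 3, the median may be lowered by that choice. SPOCK1, THBS3 and THBS2, whose differences in replicates 2 and 3 were below 1 in size, are not among these rows. For THBS2 no percentage is given, since that difference was only -0.07.

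By the root mean square difference of the 6 log2 values after subtracting each gene's own mean, the named genes most like THBS1 were ALPP (0.24), VIM (0.32), FSTL3 (0.40), VTCN1 (0.41) and PMEPA1 (0.48). ALPP is placental alkaline phosphatase, VIM the intermediate filament protein vimentin, FSTL3 a secreted activin antagonist, VTCN1 an immune checkpoint ligand and PMEPA1 a TGF-beta-induced inhibitor of its own pathway. Those most like CTGF were RHOB (0.14), NPPB (0.16), NEXN (0.17), GAS6 (0.18) and FSTL3 (0.23). RHOB is a small GTPase, NPPB the natriuretic peptide BNP, NEXN an actin-binding protein and GAS6 the ligand of the AXL receptor. NPPB is listed at 0 in all parental samples and was at 3.32, 2.99 and 3.19 in adapted cells. FSTL3 was near both members, at 1.80, 1.81 and 1.69 in parental and 5.37, 5.25 and 5.09 in adapted cells. These are likenesses over 6 samples in which the step between the groups dominates.

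The same limma fit was read for lists of genes around the members, whose log2 levels are given as mean ± SD of the 3 samples of a group. The counts of each list stand beside 30.7% of all rows tested that rose and 26.2% that fell. Of 24 other matricellular genes, 7 passed the filter, of which 6 rose, 0 fell and LGALS1 was not past the threshold, with a median log2 difference of 0.89 beside 0.03 over all rows tested. WISP2, another CCN gene, rose from 0.65 ± 0.04 to 3.22 ± 0.72 (limma adjusted p = 4.32e-04), and IBSP, a bone sialoprotein related to osteopontin, from 0.51 ± 0.09 to 1.61 ± 0.19 (limma adjusted p = 2.65e-04). Both passed the filter only through their adapted level. EFEMP1, a fibulin, rose from 4.55 ± 0.03 to 5.89 ± 0.09 (limma adjusted p = 8.61e-06). Of the 17 genes below the filter, 10 stayed under a log2 level of 0.5 in all samples, and COMP, SPOCK3 and POSTN were at or near 0. Most genes of this list, which leaves out the members, were therefore below the filter in these cells. LGALS1 was at 6.17, 6.28 and 6.32 in parental and 7.14, 5.88 and 5.77 in adapted cells, another gene in which adapted replicate 1 lay on the other side of the parental samples. Without that sample 1 gene of the list fell past the threshold. The number of this list that rose was 4 to 5, in place of 6, when any 1 sample was left out.

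Of 24 receptors of matricellular proteins, 16 were tested, 5 rose and 6 fell, with a median log2 difference of 0.12. Over all rows tested 30.7% rose and 26.2% fell, and these counts do not set the receptors apart. ITGB8, an integrin subunit that pairs with ITGAV and activates TGF-beta, rose from 1.73 ± 0.09 to 2.76 ± 0.30 (limma adjusted p = 8.90e-04). LRP1, an endocytic receptor that clears THBS1, rose by 0.72 in log2 level (limma adjusted p = 1.91e-04), and ITGAV by 0.46 (limma adjusted p = 0.0234). ITGA5, the fibronectin receptor subunit, fell from 5.32 ± 0.03 to 3.98 ± 0.29 (limma adjusted p = 1.69e-04), ITGA2, a collagen receptor subunit, fell by 0.91 (limma adjusted p = 3.20e-05), and CD44, the hyaluronan receptor that also binds osteopontin, fell by 0.91 (limma adjusted p = 0.0206). CD47, a receptor of THBS1, was at 5.88, 5.97 and 5.99 in parental and 5.90, 6.60 and 6.22 in adapted cells and was not past the threshold. CD36, the other well-known THBS1 receptor, was below a log2 level of 0.1 in all samples. The number of receptors that rose was 2 without parental replicate 2 or 3 and 8 without adapted replicate 1. ITGAV lost its call when parental replicate 2, parental replicate 3 or adapted replicate 3 was left out (limma adjusted p = 0.0587, 0.0814 and 0.0552), and CD44 without parental replicate 1 or 2 or adapted replicate 2 or 3 (0.0684, 0.0543, 0.0759 and 0.0649).

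Of 19 YAP and TAZ targets other than the members, 18 were tested, 12 rose and 1 fell, with a median log2 difference of 0.74. CCDC80, a secreted matrix protein, rose from 1.58 ± 0.05 to 3.37 ± 0.39 (limma adjusted p = 1.84e-04) and FJX1 from 2.23 ± 0.13 to 3.91 ± 0.40 (limma adjusted p = 3.03e-04). TGFB2, which rose by 3.10 (limma adjusted p = 2.19e-06), and NT5E, which fell by 1.14 (limma adjusted p = 9.17e-04), had the largest rise and the only fall of this list past the threshold. AXL and RBMS3 were tested only through their adapted level. Of 16 genes of TGF-beta ligands, their latency proteins and early targets, 13 were tested, 8 rose and 3 fell, with a median of 0.46. Of these 13, 1 passed the filter only through its adapted level. TGFB2 is also among the YAP and TAZ targets and TGFBI among the other matricellular genes, so their rises are counted in both lists. PMEPA1 rose by 3.41 (limma adjusted p = 6.23e-06). BAMBI, a decoy receptor of the pathway, fell from 5.23 to 4.23 (limma adjusted p = 0.00246), LTBP3, which tethers latent TGF-beta in the matrix, fell by 0.29 (0.00652), and TGFB1 fell by 0.28 (0.0377). TGFB1 lost its call without any 1 parental sample (limma adjusted p = 0.0875 to 0.109), without adapted replicate 2 (0.0564) and without the filter (0.0632).

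Of 18 SRF and actin-linked genes, 16 were tested, 9 rose and 4 fell, with a median log2 difference of 0.88. FILIP1L rose by 3.15 (limma adjusted p = 1.15e-05), with the filter passed through the adapted level, MYL9, a myosin light chain, from 1.22 ± 0.07 to 4.32 ± 0.16 (1.72e-06) and TAGLN, the actin-binding protein transgelin, by 2.16 (9.22e-05). FHL2, TPM2 and SRF itself fell by 0.83, 0.79 and 0.32 (limma adjusted p = 1.72e-04, 2.36e-04 and 0.0183). Without parental replicate 1 or 2 the number that fell was 2, and SRF lost its call without any 1 parental sample (limma adjusted p = 0.0501 to 0.0618). Of 19 proteases that cut matricellular proteins or act beside them, 10 were tested, 4 rose and 4 fell, with a median of 0.31, and with 10 genes beside shares of 30.7% and 26.2% over all rows nothing is read from these counts about proteases. ADAMTS1, which cleaves THBS1, rose from 0.38 ± 0.02 to 1.96 ± 0.64 (limma adjusted p = 0.00261), with the filter passed through the adapted level, and BMP1, a procollagen proteinase, by 1.05 (1.46e-05). CTSB rose by 1.09 (limma adjusted p = 5.47e-04), but its adapted values leave the 6-decimal grid by a constant of 0.65, and with this subtracted the difference was 0.44 (0.0301). MMP7, which cleaves osteopontin, fell by 0.97 (limma adjusted p = 0.0188), PLAU by 0.66 (0.0081) and PLAT by 0.49 (0.00888). The number that fell was 2 when parental replicate 1, parental replicate 3 or adapted replicate 2 was left out, and MMP7 lost its call without parental replicate 1 or 3 or adapted replicate 2 or 3 (limma adjusted p = 0.0502, 0.0593, 0.0596 and 0.0664).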

How the data were processed

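The authors deposited 1 table of log2 values with 1 row per gene and 1 column for each of 6 RNA-sequencing samples. Columns were assigned from their group names and replicate numbers. Per the submitters' processing notes the tools were STAR, Bowtie2 2.1.0 and edgeR and the build hg38, with no roles given, and the study's methods name DESeq2. The quantifier, the annotation and the use of strand are not given in the sources used here. In GENCODE v29, CYR61, SPOCK1, SPP1 and ANKRD1 overlap no other gene, and the other members overlap genes that lie mostly on the opposite strand. MTX1, which overlaps THBS3, was at log2 levels of 4.26 to 4.51, and FSIP1, which overlaps THBS1, at 0.14 to 0.681. The linear unit is not named by the authors. The logarithm and the added 1 were read from the values, which fall on a grid of 6 decimals once both are undone in 27069 rows, and the unit was taken as FPKM. In 147 rows the values of 1 group left the grid by a constant of 0.65, 0.66 or 0.2. The levels were used as deposited.

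The test was run on rows whose mean log2 level reached 1, with limma 3.58.1 in R 4.3.3, unpaired, with Benjamini-Hochberg adjustment over all of them and a threshold of 0.05. The procedure was tested on simulated data. Differences on the log2(FPKM + 1) scale understate the change of low genes, and ratios of mean FPKM are given beside them. Exact permutation of 3 and 3 samples gives no p below 0.1 and was not used. The members and lists were chosen with earlier results of these data known, so no p was adjusted over a list alone and no set was tested. Named from each list were at most 3 genes per direction, by size of the log2 difference among those past the threshold without overlap, and for THBS1 and CTGF the 5 genes of nearest pattern. A gene that this rule names is not reported here. LGALS1, CD47, CD36, AXL, RBMS3, COMP, SPOCK3, POSTN and TGFBI were named after their values were seen. The protein comparison planned for the thrombospondins and CCN genes was not made. Alternatives changed the pseudocount (0.1), the filter (none, or a mean of at least 3), the normalization (quantile, or median centring) and the variance model (no trend), added the replicate number as a block, or left out 1 sample. Subtraction of the constants was added after the data were seen.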

Additional observations from a re-analysis of the deposited data

How the results depend on the processing

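Of the 14 alternatives, the filters, the variance model, the replicate block and the subtracted constants leave the member values as they are. These could not change the log2 differences of the members. Under the others, the differences kept their sign in all members but THBS2 (-0.07 to 0.15). They ranged from 4.21 to 4.58 for THBS1, 2.91 to 3.76 for CTGF, 2.06 to 2.24 for CYR61, 2.82 to 3.57 for SPARC, 0.80 to 1.30 for SPOCK1, 0.47 to 0.65 for THBS3, 5.09 to 6.51 for ANKRD1, -2.67 to -2.24 for TNC and -4.44 to -2.07 for SPP1. Leaving out 1 sample cannot make groups overlap that were apart, so the number of members higher without overlap could not fall below 7, and it stayed at 7. That of members lower was 1 or 2, with SPP1 added without adapted replicate 1. With a mean of at least 3, which leaves fewer rows to test, 4532 rows differed (2357 higher and 2175 lower) in place of 7202 (3889 and 3313). Fewer genes of every list then rose. They numbered 8 among YAP and TAZ targets, 4 among other matricellular genes and 3 among receptors. Among SRF and actin-linked genes 5 rose, among TGF-beta genes 4 and among proteases 2. Without a filter, 1 other matricellular gene fell. Leaving out 1 sample at a time gave 5778 to 8371 rows (3194 to 4441 higher and 2568 to 3930 lower). The counts that rose and fell were then 4 to 5 and 0 to 1 for other matricellular genes, 2 to 8 and 4 to 6 for receptors, 12 to 13 and 1 for YAP and TAZ targets, 6 to 8 and 2 to 4 for TGF-beta genes, 9 to 10 and 2 to 4 for SRF and actin-linked genes, and 4 to 5 and 2 to 4 for proteases. Whether the replicate numbers pair the samples is not stated. Deviations from the group means of same-numbered samples correlated at -0.05, -0.03 and -0.02 across genes. These values show no shared deviation but cannot exclude a pairing, and the replicate block gave 6761 rows. The depth is unknown, so the precision of low levels such as those of THBS2 and of parental ANKRD1 cannot be given.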

Other observations

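SPP1 was followed up after its values were seen, by counting the named genes tested (11707) whose adapted replicate 1 lay within 0.5 of the parental mean on the log2 scale while replicates 2 and 3 were both at least 2 lower. There were 4, SPP1, FGG, USH1C and CEACAM7, and 0 with replicate 2 or replicate 3 in that place. FGG, the gamma chain of fibrinogen, was at 4.33, 4.30 and 4.34 in parental and 4.19, 1.24 and 0.83 in adapted cells. USH1C, a scaffold protein of microvilli, was at 2.55 in adapted replicate 1 and at 0.73 and 0.63 in the others, against 2.75 to 2.86 in parental cells. CEACAM7, a surface glycoprotein, was at 3.43, 1.70 and 1.64 against 3.74 to 3.86. In the opposite direction, 2 genes had adapted replicate 1 within 0.5 of the parental mean and both other adapted samples at least 2 higher. By the signed gap, adapted replicate 1 minus the mean of replicates 2 and 3, SPP1, with 4.53, ranked 2 from the top among the named genes tested. A gap of at least 1 in either direction was found in 186 of these genes for replicate 1, in 35 for replicate 2 and in 48 for replicate 3. The cause was not tested.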
